A study of Homo sapiens with 4 samples.

Results

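The 8 genes described here encode core proteins of base excision and single-strand break repair: UNG, OGG1, APEX1, PARP1, PARP2, XRCC1, POLB and LIG3. They were selected by gene name with earlier results of these data known, and all 8 were found among the 58174 genes with an Ensembl identifier. SW1990 and PANC-1, both established human pancreatic cancer cell lines, each gave 1 library from unirradiated cells (0 Gy) and 1 from cells exposed to an X-ray dose of 10 Gy, which makes 4 libraries. Each line was grown in its own medium with serum, and the labels name no transgene or knockout. The sources used here do not give the time between radiation and RNA collection, so the values describe 1 unspecified time. Reads counted on genes numbered 17851815 for SW1990 without and 18305682 with radiation, and 23323266 for PANC-1 without and 20026595 with radiation. With 1 library per group no difference has a replicate check. Each pairwise test compares 2 libraries and not 2 conditions, and the intervals cover counting error only.

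Base excision repair removes small, chemically altered bases. A DNA glycosylase cuts out the base, an AP endonuclease opens the strand at the empty site, a polymerase fills the gap and a ligase seals it. Strand breaks, which ionising radiation also makes directly, are sensed by PARP enzymes, whose poly(ADP-ribose) chains attract the scaffold XRCC1 and its partners. All measurements here are of RNA, and in bulk libraries fewer cells of a type and less RNA per cell cannot be told apart.

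Both lines were checked against marker genes. The keratins KRT8, KRT18 and KRT19 were abundant in all 4 libraries. EPCAM had 7348 and 7552 counts in unirradiated and irradiated SW1990 cells but 108 and 113 in PANC-1 cells, and CDH1 had 9906 and 14345 against 59 and 65. The epithelial adhesion markers were thus low in PANC-1. Over 9 markers of leukocytes, endothelium, fibroblasts, acinar cells and islets, the counts summed to 26, 62, 4 and 4 in the same order. VWF had the most counts of them, 50 at most, and PRSS1 the highest FPKM, 0.604, and CD3E, DCN, CPA1 and INS were at 0 in every library.

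Upstream stretches are shown for UNG, the member that differed past 1.5-fold in opposite directions in the lines, and for APEX1 and PARP2, which each start next to a gene on the other strand. RefSeq promoter windows on GRCh38 were found for 7 of the 8 members, and the stretches end at the base before the annotated start. UNG lies at chr12:109097574-109110992 on the plus strand. Of its 5 transcripts in GENCODE 29, the 2 of the basic set gave the 2 starts used here. The second, at 109098118, lies inside the gene. APEX1 lies at chr14:20455191-20457772 and PARP2 at chr14:20343582-20357905, both on the plus strand. Of the other members, PARP1 lies at chr1:226360691-226408079 and XRCC1 at chr19:43543040-43580473 on the minus strand, and LIG3 at chr17:34980494-35009743 and OGG1 at chr3:9749944-9788219 on the plus strand. Capitals mark matches on either strand to TTTGCCGC (a form of the E2F site), to CCAAT (the CCAAT box), to GGGCGG (the GC box), to CACGTG (the E-box), to ATGCAAAT (the octamer) and to TATAA (the core of the TATA box). The letters were chosen with these sequences in view.
UNG before the first start, chr12:109097454-109097573: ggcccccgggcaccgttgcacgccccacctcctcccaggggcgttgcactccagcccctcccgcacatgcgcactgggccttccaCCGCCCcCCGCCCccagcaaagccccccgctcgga
UNG before the second start, chr12:109097990-109098117: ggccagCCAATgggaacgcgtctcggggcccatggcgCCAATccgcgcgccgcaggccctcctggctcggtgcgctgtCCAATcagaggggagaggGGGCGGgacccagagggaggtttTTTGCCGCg
APEX1, gap to the start of OSGEP, chr14:20455106-20455190: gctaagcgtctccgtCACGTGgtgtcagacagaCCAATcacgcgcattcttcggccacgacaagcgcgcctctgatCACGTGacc
PARP2, gap to the start of RPPH1, chr14:20343408-20343581: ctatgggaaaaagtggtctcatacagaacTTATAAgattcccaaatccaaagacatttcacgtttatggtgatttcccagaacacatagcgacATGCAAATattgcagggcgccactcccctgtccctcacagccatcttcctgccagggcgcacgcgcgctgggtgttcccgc

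The stretch before the second start of UNG held 5 matches, among them CCAAT 3 times and TTTGCCGC once. Of all 35116 promoter windows of 300 bases, TTTGCCGC was in 0.607%, and in 1 of the 7 members searched, UNG. The letters were chosen with the UNG sequence in view, so this low share is not a result about UNG. CCAAT was in 34.6% of windows (4 of the 7 members), GGGCGG in 45.0% (6) and CACGTG in 7.26% (3). ATGCAAAT was in 1.77% and TATAA in 20.4%, each in 1 member, PARP2. TGACGTCA, searched as well, was in 1.85% and in PARP2, but not within the stretch shown. In the PARP2 gap, TTATAA covers TATAA read on both strands. A match describes the letters only and is not a site.

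Levels between genes are compared as FPKM, the authors' value scaled to transcript length and library size. PARP1 was the highest member in every library, with 94.0 and 96.8 FPKM in unirradiated and irradiated SW1990 cells and 46.8 and 53.7 in PANC-1 cells. It made up 43.1%, 44.1%, 29.6% and 40.0% of the summed FPKM of the 8 genes in these libraries. By the median over the libraries APEX1 came next at 21.5 FPKM, then LIG3 at 18.4, XRCC1 at 14.96, UNG at 13.5, POLB at 13.1, OGG1 at 12.5 and PARP2 at 11.6. UNG alone ran from 8.82 to 25.2 FPKM over the libraries, a wider range than that of these 7 medians, and the neighbours in this order do not differ beyond their spread over libraries. By FPKM LIG3 varied least, with 1.29 times between its highest and lowest value, and POLB most, with 3.05 times. This order depended on the unit. By counts scaled between libraries (TMM), XRCC1 spanned least in log2, 0.17, and UNG most, 1.46, with LIG3 at 0.62 and POLB at 1.38.

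**Figure D1:**
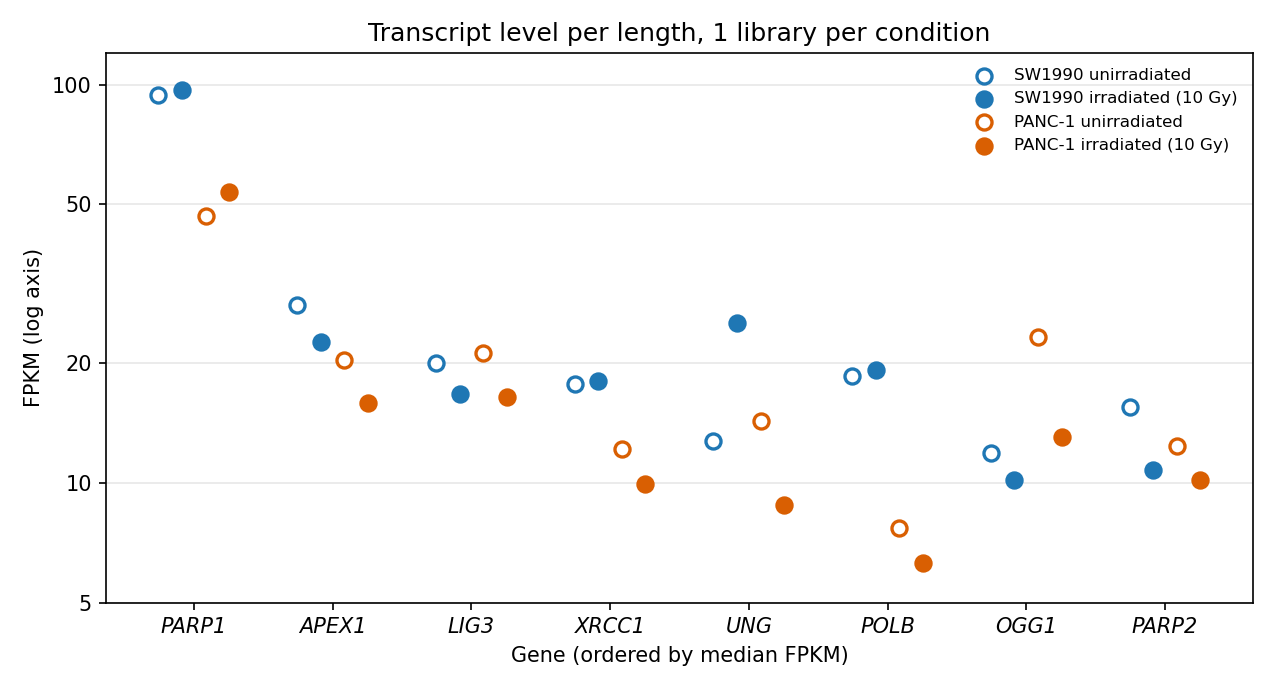
FPKM (log axis) of the 8 genes in each of the 4 libraries, with SW1990 in blue, PANC-1 in orange, open points unirradiated and filled points irradiated with 10 Gy. PARP1 stands above the other 7 genes in every library, and the UNG points of the 2 lines cross after radiation.

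The first question of the design was how each line's transcripts differed after radiation. UNG, which removes uracil from DNA, differed most by scaled counts, and in opposite directions (by FPKM OGG1 differed more in PANC-1 cells, -0.83 against -0.70): it was higher after 10 Gy in SW1990 cells and lower in PANC-1 cells. LIG3 was lower in SW1990 cells, and PARP1 was nearly level in both lines. A gene was called at a q-value below 0.001 (edgeR's binomial test, Benjamini-Hochberg adjustment over all genes tested) and a fold above 2. By that rule 0 of the 8 genes were called in SW1990 cells, where 4.26% of 15731 genes were, and 0 of 8 in PANC-1 cells, where 4.77% of 15159 genes were. At a fold above 1.5, UNG (higher) and LIG3 (lower) were called in SW1990 cells against 9.5% of all genes, and UNG (lower) in PANC-1 cells against 11.8%.

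**Figure D2:**
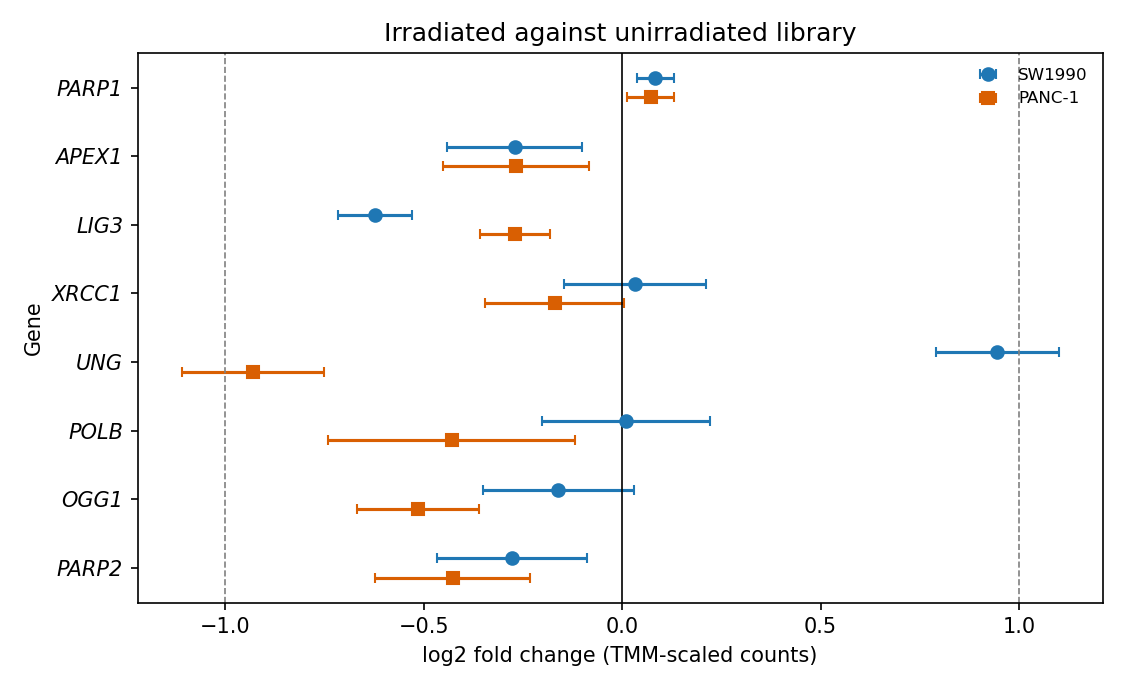
Log2 fold change of the irradiated against the unirradiated library for the 8 genes in SW1990 (blue circles) and PANC-1 (orange squares), with exact 95% counting intervals and dashed lines at a 2-fold change. The UNG intervals lie on opposite sides of 0. Intervals lie wholly below 0 for 6 genes in PANC-1 and 3 in SW1990 cells, and the share of all genes with such intervals is not given here.

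Of the glycosylases, UNG had 529 counts in the unirradiated and 1004 in the irradiated SW1990 library, and 786 and 377 in those of PANC-1. Irradiated SW1990 was the highest of the 4 libraries and irradiated PANC-1 the lowest. The log2 fold change after scaling the libraries by TMM was 0.95 in SW1990 cells (95% counting interval 0.79 to 1.10) and -0.93 in PANC-1 cells (-1.11 to -0.75). By FPKM, UNG went from 12.7 to 25.2 in SW1990 cells and from 14.3 to 8.82 in PANC-1 cells, log2 fold changes of 0.98 and -0.70. OGG1, which removes oxidised guanine, had 491 and 433 counts in unirradiated and irradiated SW1990 cells and 896 and 573 in PANC-1 cells. Unirradiated PANC-1 was thus its highest library. Its log2 fold change was -0.16 (-0.35 to 0.03) in SW1990 and -0.51 (-0.67 to -0.36) in PANC-1 cells, where it was -0.83 by FPKM. The FPKM of UNG relative to OGG1 was 1.07 without and 2.48 with radiation in SW1990 cells, and 0.617 and 0.676 in PANC-1 cells.

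APEX1, the main AP endonuclease, had 633 and 517 counts in SW1990 cells and 565 and 429 in PANC-1 cells. Its log2 fold changes were close in the lines, -0.27 (-0.44 to -0.10) and -0.27 (-0.45 to -0.08), and neither was called. OSGEP, a gene of tRNA modification that starts 86 bases away on the other strand, had 748, 757, 704 and 727 counts in unirradiated and irradiated SW1990 and unirradiated and irradiated PANC-1 cells. Its log2 fold changes were 0.04 and 0.18.

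PARP1, the main poly(ADP-ribose) polymerase that senses strand breaks, had 7141 and 7459 counts in SW1990 cells and 4726 and 4537 in PANC-1 cells. The log2 fold changes of 0.08 (0.04 to 0.13) and 0.07 (0.01 to 0.13) were the smallest in size, among the members, that still had a counting interval without 0. PARP2, its lower-expressed relative, had 514 and 418 counts in SW1990 cells and 537 and 365 in PANC-1 cells. Its log2 fold change was -0.28 (-0.47 to -0.09) in SW1990 and -0.43 (-0.62 to -0.23) in PANC-1 cells. The FPKM of PARP1 relative to PARP2 was 6.08 and 9.01 in unirradiated and irradiated SW1990 cells and 3.78 and 5.30 in PANC-1 cells, higher in the irradiated library of each line. RPPH1, the RNA of RNase P, starts 175 bases from PARP2 on the other strand and had log2 fold changes of 0.11 and -0.19.

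XRCC1, the scaffold that holds the repair proteins together, had 517 and 521 counts in SW1990 cells and 595 and 483 in PANC-1 cells. Its log2 fold changes were 0.03 (-0.15 to 0.21) and -0.17 (-0.35 to 0.005), and both intervals contain 0. POLB, the gap-filling polymerase encoded on chromosome 8, had 370 and 367 counts in SW1990 cells and 215 and 146 in PANC-1 cells. Its log2 fold change was 0.01 (-0.20 to 0.22) in SW1990 and -0.43 (-0.74 to -0.12) in PANC-1 cells, and the PANC-1 libraries lay below both SW1990 libraries. LIG3, the ligase that partners XRCC1, had 2343 and 1500 counts in SW1990 cells and 2399 and 1818 in PANC-1 cells. Its log2 fold change was -0.62 (-0.72 to -0.53) in SW1990 and -0.27 (-0.36 to -0.18) in PANC-1 cells. By FPKM the SW1990 value was only -0.26, from 19.998 to 16.7, so the size of the LIG3 difference depended on the unit.

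The 8 genes had a median response, as log2 fold change, of -0.08 in SW1990 cells, against 0.02 over all genes tested, and -0.35 in PANC-1 cells, against -0.02. In PANC-1 cells 7 of the 8 were below 0 (51.7% of all genes were) and in SW1990 cells 4 of 8 (46.6%). The other genes of the pathway list described below did not share this: 12 of 30 were below 0 in PANC-1 cells (median 0.03) and 11 of 31 in SW1990 cells (median 0.04). PARP2, LIG3, APEX1 and OGG1 were below 0 in both lines, as were 27% of the 13113 genes tested in both.

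The difference between the lines' responses was taken as the SW1990 minus the PANC-1 log2 fold change. For UNG it was 1.87 (95% counting interval 1.64 to 2.11), and 1.68 by FPKM. A difference over 1 with a counting interval without 0 was found for 9.19% of 13113 genes, and UNG was the 1 of the 8 members with it. Responses past 1.5-fold in opposite directions were found for 2.2% of these genes. Of the 13113 genes, 3.42% had a difference at least as far from 0 as that of UNG, and of the 9938 with at least 100 counts in every library, 0.946% did. For OGG1 the difference was 0.35 (0.11 to 0.59), and 0.60 by FPKM. For POLB it was 0.44 (0.07 to 0.80) and for LIG3 -0.35 (-0.48 to -0.22), which became 0.11 by FPKM. For APEX1 it was -0.0044 (-0.25 to 0.24) and for PARP1 0.01 (-0.06 to 0.09), which became -0.13 with library totals and -0.16 by FPKM. With 1 library of each kind, these differences were not tested against replicate spread.

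The second question was how the lines differed at each treatment. PARP1 and POLB were higher in SW1990 than in PANC-1 cells with and without radiation, and OGG1 was lower. In unirradiated cells 0 of the 8 genes were called at a fold above 2, where 36.2% of 16626 genes were. With library totals POLB was called (1.17), and by FPKM PARP1 (1.01) and POLB (1.27). These settings moved the median over all genes tested as well, from -0.02 with TMM to 0.20 with library totals and 0.21 by FPKM. The share of all genes called under them is not given here. In irradiated cells UNG and POLB were called, both higher in SW1990, where 35.3% of 16819 genes were called. Neither was called once a coefficient of variation of 0.2 or 0.4 was assumed. The share of all genes called under that assumption is not given here, so the loss is not particular to these 2 genes. At a fold above 1.5, PARP1, POLB and OGG1 were called in unirradiated cells (51% of genes) and PARP1, UNG and POLB in irradiated cells (49.7%). These comparisons use the same 4 libraries as the radiation comparisons, so they are not separate evidence.

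The log2 difference of PARP1 was 0.75 (0.70 to 0.81) without and 0.77 (0.71 to 0.82) with radiation. That of POLB was 0.94 (0.69 to 1.19) and 1.38 (1.10 to 1.66), and by FPKM 18.5 and 19.2 in SW1990 stood against 7.68 and 6.29 in PANC-1 cells. That of OGG1 was -0.71 (-0.87 to -0.55) and -0.36 (-0.54 to -0.17). UNG stood on opposite sides of 0, at -0.41 (-0.58 to -0.25) without and 1.46 (1.29 to 1.64) with radiation. APEX1 was at 0.32 in both states, PARP2 at 0.09 and 0.24, XRCC1 at -0.04 and 0.16 and LIG3 at 0.12 and -0.23. By FPKM, XRCC1 was at 0.54 and 0.86.

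**Figure D3:**
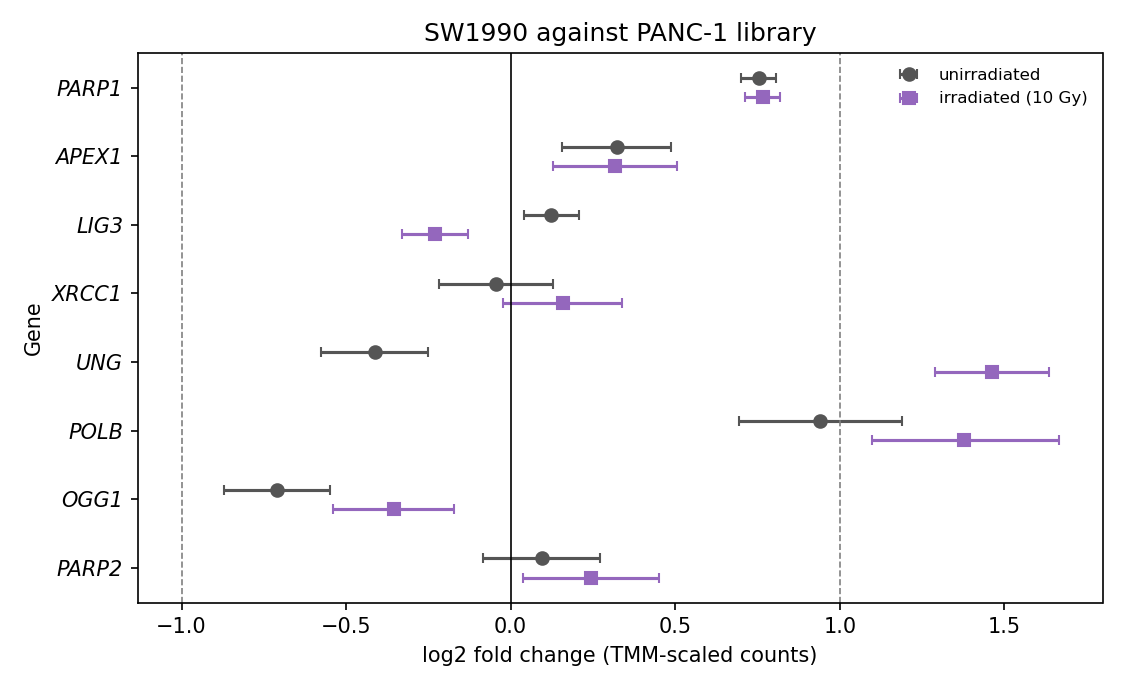
Log2 fold change of SW1990 against PANC-1 for the 8 genes in unirradiated (grey circles) and irradiated (purple squares) libraries, with exact 95% counting intervals and dashed lines at a 2-fold difference. PARP1 keeps its place at 0.75 and 0.77, while UNG moves from -0.41 to 1.46.

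A single edgeR model (quasi-likelihood test) over all 4 libraries had line and radiation as terms, which leaves 1 residual degree of freedom. For radiation, 0 of 18180 genes passed an adjusted p of 0.05, 833 (4.58%) had an unadjusted p below 0.05, limma called 0 and DESeq2 39. On simulated counts of this design DESeq2 made false calls. At a spread like that of these libraries the edgeR fit missed most 2-fold changes but found nearly all 4-fold ones. Neither the 39 nor the 0 therefore settles how many genes differed. None of the 8 members was called by edgeR. LIG3 had the lowest unadjusted p of the 8, with a log2 fold change of -0.44 (SE 0.16, unadjusted p = 0.0428, adjusted p = 0.936), and UNG, whose lines moved apart, had 0.02 (SE 0.48). For the line, 7921 of 18180 genes (43.6%) passed in the edgeR fit. Of the members, PARP1 passed with a log2 difference of 0.76 (SE 0.13, adjusted p = 0.011) and POLB with 1.16 (SE 0.24, adjusted p = 0.0206), both higher in SW1990 in 2 of 2 library pairs. OGG1 did not pass, at -0.53 (SE 0.19, adjusted p = 0.0782).

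The wider pathway was described with a list of 39 genes that includes the 8 members. In SW1990 cells all 39 were tested, 24 above and 15 below 0 with a median of 0.03, and 1 was called, TDP2, which frees DNA ends from trapped topoisomerase. It had 940 and 450 counts, a log2 fold change of -1.04. In PANC-1 cells 38 were tested, 19 on each side of 0 with a median of -0.01, and 0 were called. NTHL1, a glycosylase for oxidised pyrimidines, had 235 and 164 counts in SW1990 cells and 250 and 394 in PANC-1 cells, log2 fold changes of -0.50 and 0.79. FEN1, the flap nuclease of long-patch repair, had 2316 and 2345 counts and 1891 and 2678, log2 fold changes of 0.04 and 0.63. At a fold above 1.5, NTHL1, FEN1 and TDG were called higher in PANC-1 cells and UNG lower, 4 of 38 pathway genes, a share near the 11.8% of all genes. TDG had 0.70 by counts but 0.08 by FPKM. The difference between responses was -1.28 for NTHL1 and -1.32 for TDP2, both opposite in sign to that of UNG. With UNG, these were the 3 of 38 pathway genes with a difference over 1 in size, beside 9.19% of all genes. In the lists of homologous recombination (19 genes) and non-homologous end joining (11 genes), 0 were called in either line at a fold above 2, beside 4.26% and 4.77% of all genes. At a fold above 1.5, RAD50 was called higher in SW1990 cells (beside 9.5% of all genes) and RAD51B and RAD54L in PANC-1 cells (beside 11.8%), genes named after their values were seen. RAD50 had a log2 fold change of 0.99 by counts but 0.14 by FPKM, and RAD54L 0.62 but 0.40. RAD51B went the other way, with 0.67 by counts and 1.17 by FPKM.

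Against PANC-1, unirradiated SW1990 cells had 7 of 39 pathway genes called at a fold above 2, none of them a member, beside 36.2% of all genes, and irradiated SW1990 cells had 10, beside 35.3%. The 7 became 11 with library totals and 12 by FPKM, settings that moved the median over all genes tested from -0.02 to 0.20 and 0.21. Among the 7, NEIL1, NEIL3, POLD1 and LIG1 were higher and POLD4 and NUDT1 lower. NEIL1, a glycosylase of oxidised bases, had 137 counts in each SW1990 library and 11 and 30 in unirradiated and irradiated PANC-1 cells. LIG1, the replicative ligase, had an FPKM of 40.8 and 35.6 in SW1990 and 13.9 and 19.3 in PANC-1 cells. The FPKM of LIG3 relative to LIG1 was accordingly 0.491 and 0.469 in SW1990 and 1.52 and 0.853 in PANC-1 cells. DUT, which clears dUTP so that less uracil enters DNA, had 397 and 278 counts in unirradiated and irradiated SW1990 cells and 871 and 779 in PANC-1 cells. Its log2 difference between the lines was -0.98 without radiation, not called at a fold above 2, and -1.44 with radiation, called lower in SW1990.

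**Figure D4:**
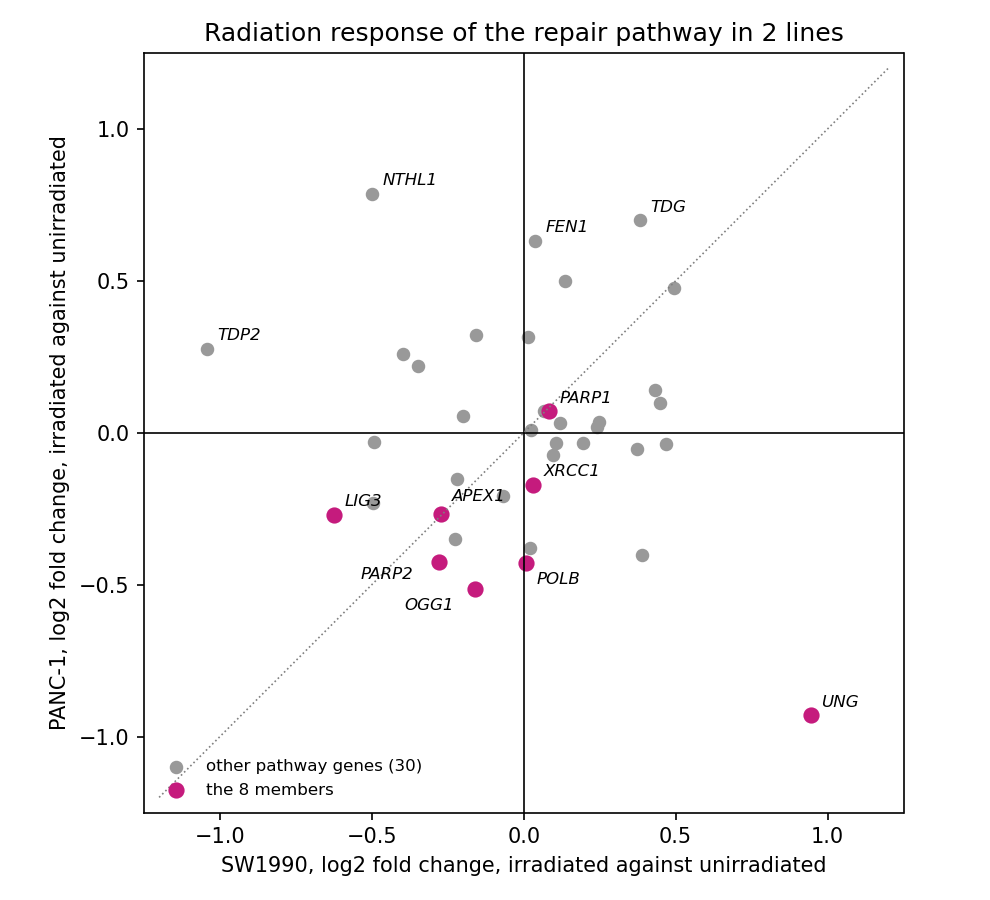
Log2 fold change after radiation in SW1990 (x axis) and PANC-1 (y axis) for 38 pathway genes tested in both lines, with the 8 members in magenta, the other 30 in grey, and a dotted line where both lines move equally. UNG stands at 0.95 and -0.93, away from the other members, and TDP2 and NTHL1 lie on the opposite side.

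Count and FPKM did not move together for every gene, and the cause was not tested. The length implied by both values was steady for PARP1, 4211 to 4330 bases, a ratio of 1.03. It ranged from 4861 to 6563 bases for LIG3 (ratio 1.35), from 1657 to 2331 for OGG1 (1.41) and from 1585 to 2430 for XRCC1 (1.53), against a median ratio of 1.15 over 9899 genes with an FPKM of at least 1 and at least 100 counts in every library. For UNG the ratio was 1.10. The strand of the reads is not stated to have been used in counting, and 29.1% of the exonic bases of LIG3 overlap RFFL on the other strand, which had 1276, 1215, 1718 and 1414 counts. For OGG1, 25.0% overlap CAMK1, which had 325, 335, 88 and 114 counts. For XRCC1, which had the largest ratio of these, 15.5% overlap L34079.3 on the other strand, which had 4, 13, 0 and 0 counts. The part of these overlaps in the values of LIG3, OGG1 and XRCC1 was not tested. UNGP3, a pseudogene named after UNG, had 2 counts at most, and PARP1P1 and PARP1P2 were at 0 in every library.

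**Figure D5:**
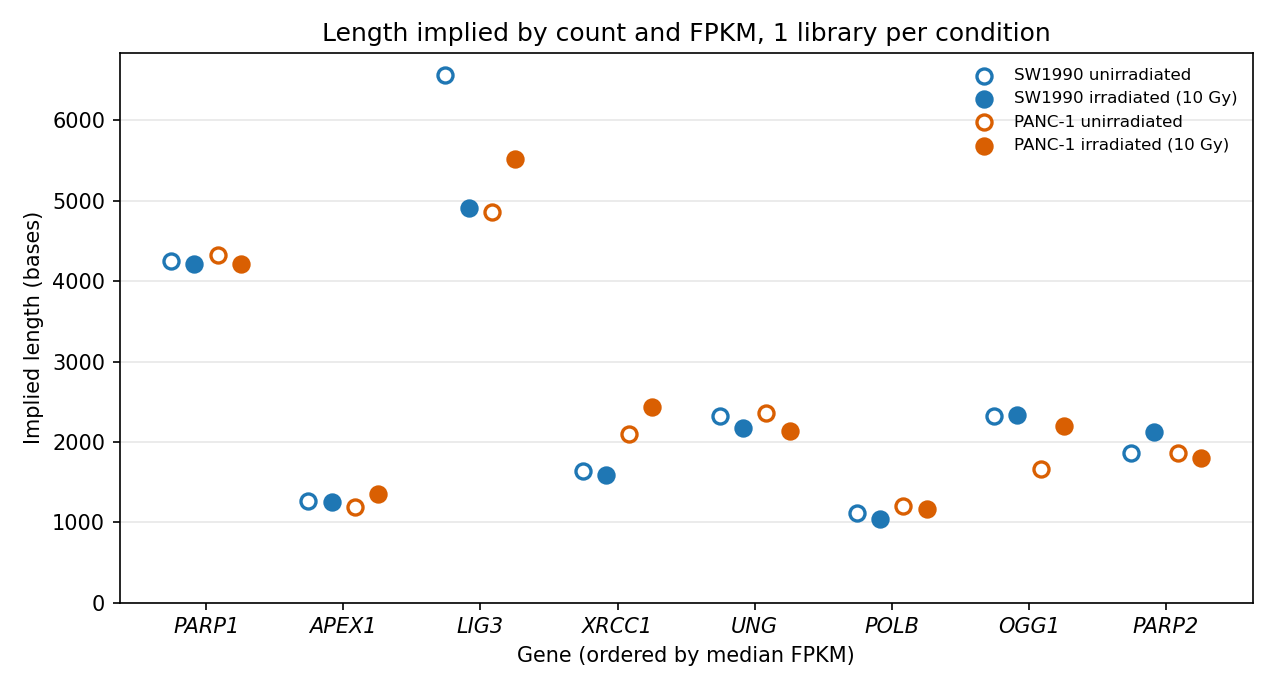
Transcript length in bases implied by the count and the FPKM of each gene in the 4 libraries, with symbols as in the plot of FPKM. PARP1 stays between 4211 and 4330 bases, and LIG3 in unirradiated SW1990 cells stands highest at 6563.

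UNG and POLB were the members whose scaled log2 level spanned more than 1 over the 4 libraries. By root mean square distance of centred log2 levels over these 4 libraries, among 7772 genes, the profiles closest to UNG were those of RFNG (0.106), SEC61A1 (0.112) and MANEAL (0.117). SEC61A1, the channel of the endoplasmic reticulum, had 4313, 9547, 7864 and 3310 counts. The profiles closest to POLB were APBB2 (0.0387), SNHG12 (0.039) and RPL6 (0.0398). Among the members themselves PARP2 and APEX1 were closest to each other, at 0.094.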

How the data were processed

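RNA of 2 cell lines was compared with 1 library per group. Per the labels and methods, the authors trimmed reads with Trimmomatic 0.36, aligned them to GRCh38 with HISAT2 2.0 and computed FPKM with StringTie 1.3.3b. The deposited counts are whole reads per gene without normalization. Their counting tool is not given in the sources used here. The deposited FPKM values are scaled to transcript length and fragments. The labels also list DESeq2 1.12.4. The methods name an mRNA kit, the sample records removal of ribosomal RNA. Rows that name no gene, 0.453% to 0.635% of counts, were left out.

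Pairs of libraries were tested with edgeR 4.0.16 (binomial test, TMM scaling, R 4.3.3) among genes whose FPKM reached 1 in either library, with 0 set to 0.01 for fold changes. Where FPKM stood in place of counts, only the fold change was replaced, and the q-value stayed that of the TMM-scaled counts. Fold changes carry 95% Clopper-Pearson intervals, and the intervals of differences between responses are normal approximations from the counting error of the 4 counts. All 4 libraries were fitted with edgeR's quasi-likelihood test, with DESeq2 1.42.0 and limma 3.58.1 as alternatives. The tests were tested on simulated data. Positions are from the deposited table and GENCODE 29, sequences from RefSeq (GRCh38.p14).

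Named were all 8 members, pathway genes called in any pair, the highest and lowest of each role list in each line, overlapping genes and divergent neighbours, and the 3 nearest profiles of members spanning over 1. The text gives part of these, and a pathway gene is not reported here by name. The members and lists were chosen with earlier results of these data known.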

Additional observations from a re-analysis of the deposited data

Results flagged for a closer look

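The radiation response of UNG differed between the lines, because the SW1990 libraries moved one way and the PANC-1 libraries the other: the SW1990 minus PANC-1 difference in log2 fold change was 1.87. It rests on 1 library of each kind, and the difference was not tested.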

How the results depend on the processing

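Library scaling, the filter on FPKM, the fold limit, an assumed spread between replicates and FPKM in place of counts were varied. With fold above 1.5, 2 members were called in SW1990 cells, 1 in PANC-1 cells and 3 between unirradiated lines. Between unirradiated lines, library totals gave 1 member and 11 pathway genes and FPKM gave 2 and 12, against 0 and 7. The FPKM calls join an FPKM fold with the q-value of the counts. The median over all genes tested moved in the same settings, from -0.02 to 0.20 and 0.21. Between irradiated lines, an assumed coefficient of variation of 0.2 or 0.4 gave 0 members against 2, with no share of all genes given for it. With library totals, XRCC1 and POLB in SW1990 cells became -0.025 and -0.048. The unirradiated line difference of XRCC1 became 0.18 with library totals and 0.54 with FPKM, and that of LIG3 became -0.081 with FPKM and 0.024 in irradiated cells. The difference between responses of PARP2 went from 0.15 to -0.24 by FPKM, and that of LIG3 from -0.35 to -0.50 with library totals. Beyond what these constructions show, the cause was not tested. Leaving out a library was not possible, since each group has 1 and the fit of 4 would keep no residual degree of freedom. The labels give no replicate numbers, and the fit of 4 libraries already takes the line as a block. The calls rest on counting depth alone. The fit of 4 libraries, with 1 residual degree of freedom, leaves any change that it does not call undecided.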
